A study of Mus musculus with 16 samples.

Results

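The libraries described here are 8 of the 16 RNA-seq libraries of mouse first molar germs in this study, namely those labelled ED15, ED16, ED17 or ED18, where ED is the embryonic day. They were chosen by their labelled stage together with the level of 2 genes: each held Pou3f3 above 30 CPM and Nkx2-3 below 1 CPM, where CPM is the count of a gene scaled to the TMM library size. Positions 1 to 4 are the libraries labelled upper molar at ED15, ED16, ED17 and ED18, and positions 5 to 8 are those labelled lower molar at the same stages. This order follows the code in the deposited tables, and it was proposed with earlier results of these data known, so a trend over it describes these libraries and is not independent evidence that position is time. Per the labels, all 16 libraries came from wild-type (WT) male embryos of the outbred CD1 stock, with both first molar germs of 1 jaw pooled in a library and 1 embryo giving both libraries of a stage. The other 8 libraries, labelled ED14.5, ED15.5, ED16.5 or ED17.5, are called the intermediate-stage libraries and are ordered 1 to 8 in the same way. No genotype, treatment or drug differs between the groups.

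A molar germ is an epithelial enamel organ around condensed mesenchyme, and between the cap and the bell stage the epithelium folds at signalling centres called enamel knots, which mark the future cusps. Knot signals such as Shh, Bmps, Fgfs and Wnts act on both tissues, while the mesenchyme divides into the papilla, which will form dentin-secreting odontoblasts, and the follicle, which faces the bone. Pou3f3 encodes a POU-domain transcription factor known from the upper jaw, and Nkx2-3 encodes a homeobox factor known from the lower molar.

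Pou3f3, whose level chose these libraries, had 132, 119, 111, 109, 86.2, 70.6, 64.7 and 60.6 CPM from position 1 to position 8. The lowest of the 8, 60.6 CPM, stood inside the limit, and the highest intermediate-stage library, at 10.1 CPM, stood outside it. Nkx2-3 reached at most 0.112 CPM in the 8 libraries, which was 5 counts, and at least 19.5 CPM in the intermediate-stage libraries. The 2 genes thus divided the libraries by whole-day and intermediate stage, and not by the labelled tooth. Pou3f3 was lower at each position than at the one before. No test is given for either gene, because they set the choice.

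Gene counts per library ran between 33146758 and 44565205, with the most at position 5. Markers of both germ tissues were present at every position: Epcam, an adhesion protein of epithelia, had 121 to 154 CPM, and Msx1, of dental mesenchyme, had 72.6 to 253 CPM. Although the label says male, Xist, the RNA of the inactive X chromosome, had 1502 to 1926 CPM at 7 positions and 543 CPM at position 5, while 4 Y-linked genes had 2 counts in all 8 libraries together. Positions 1 and 5 carry the label of 1 embryo, and their Xist levels were 1739 and 543 CPM. The intermediate-stage library at position 5 was also the lowest of its set, at 428 CPM. The deposited tables carry a flow cell code that changes between positions 4 and 5, exactly where the labelled tooth changes, so those 2 cannot be told apart. Each flow cell lane held 2 positions. Skeletal muscle genes stood highest at position 4, as described further on.

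The libraries lay in order of position along their main axis of variation. Over the 500 genes of highest variance, the first principal component took up 64.9% of the variance. Its scores were -34.8, -28.8, -16.6, -8.16, 8.51, 16.99, 27.7 and 35.1 from position 1 to position 8. The second held 10.5% and formed an arch, with -13.2 at position 1, 15.49 at position 4 and -12.4 at position 8. The nearest library to each, by root mean square log2 difference over all tested genes, was a neighbour in the order within its own flow cell, at 0.387 to 0.405. Positions 4 and 5 differed by 0.452. The partner that the labels assign to the same embryo was 4 positions away and ranked between 4 and 7 among the 7 other libraries, at 0.597 to 0.636.

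**Figure D1:**
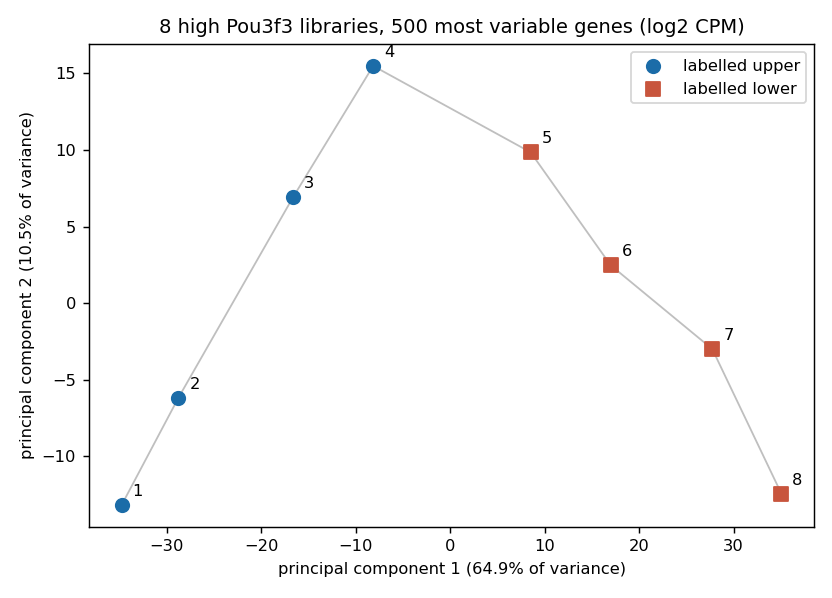
Scores of the 8 libraries on the first and second principal component of log2 CPM, with the position beside each point, circles for those labelled upper and squares for those labelled lower. The first component increases at each position, between -34.8 and 35.1, and the second is highest at position 4.

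Along the order, 1869 of 16020 tested genes rose (11.7%) and 1192 fell (7.44%), or 19.1% together, by edgeR's quasi-likelihood test of a linear slope with Benjamini-Hochberg adjustment. With 1 library at each position, a p-value measures the scatter of single libraries about a line. Per the labels the 8 libraries come from 4 embryos, and this test leaves that pairing out. The fitted change from position 1 to position 8 exceeded 4-fold for 421 rising and 169 falling genes, and 64-fold for 33 and 5. Of the rising genes, 1564 had a positive slope in both flow cells, and 873 of the falling genes had a negative one in both. Strictly ordered values through all 8 positions were found in 117 rising and 38 falling genes. With a term for the flow cell, 380 genes rose (2.37%) and 127 fell (0.793%), of which 327 and 83 were also in the pooled counts. These 2 counts were 150 to 254 and 28 to 91 when 1 library was left out, the lowest without position 5 and without position 1, and DESeq2's Wald test gave 945 and 558. The count of rising genes was 1223 without position 8, and that of falling genes 755 without position 8 and 726 without position 2. Without position 5, where Xist was low, 1690 genes rose and 1150 fell. Of 232 rising or falling genes in the gene lists and named sets, between 9 (without position 4) and 74 (without position 8) did not pass when 1 library was left out, and 46 did not pass with the embryo as a replicate block. The libraries of each embryo are equally far apart in the order and lie on either side of the flow cell change. A slope with this block thus measures only the difference between flow cells, or labelled teeth, and holds nothing on the order within them. With a term for each lane, which leaves 3 residual degrees of freedom, 3 genes rose and 0 fell.

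The steepest genes are named by a fixed rule: a mean of at least 50 counts, a slope of the same sign in both flow cells, and the steepest slope. Genes named for a curve or a slope difference keep only the count limit. Members of gene lists keep neither limit: Lin28b, Cd163 and Ckm had means of 26.75, 23.5 and 19.875 counts. The 10 steepest rising genes encode proteins of the cornified layer (Sprr3, Cnfn), a collagenase (Mmp13), transcription factors (Tbx22, Sall3), a complement component (C4b), a potassium channel subunit (Kcne1), a calcium-binding protein (Scgn), a membrane-anchored surface protein (Psca) and the cysteine-rich protein Plac8. Sprr3, a small proline-rich protein of the cornified envelope, had 0.280, 0.381, 0.306, 1.23, 7.10, 5.58, 26.3 and 60.9 CPM from position 1 to 8. Its slope was 1.25 ± 0.09 log2 per position (SE; adjusted p = 1.99e-05, edgeR's quasi-likelihood test) and 1.06 ± 0.16 within flow cells. Mmp13, which cleaves fibrillar collagen, had 0.644, 2.04, 6.32, 12.8, 38.1, 63.7, 109 and 177 CPM. It was higher at each position than at the one before, with a slope of 1.07 ± 0.06 (adjusted p = 6.55e-06) and 0.92 ± 0.10 within flow cells. Tbx22, a T-box factor of the palate, had 0.0840, 0.353, 0.279, 1.56, 5.55, 13.4, 23.0 and 20.1 CPM, with its highest value at position 7 and a slope of 1.17 ± 0.11. C4b had 0.196, 0.435, 0.641, 1.17, 6.24, 6.65, 15.4 and 26.2 CPM and a slope of 1.03 ± 0.07. Sall3, a zinc-finger transcription factor, had 1.40, 1.14, 10.8, 20.1, 51.0, 72.7, 92.2 and 127 CPM and a slope of 0.93 ± 0.11, against 0.78 ± 0.19 within flow cells (adjusted p = 0.0575). C4b and Sall3 stood higher at each of positions 5 to 8 than at any of positions 1 to 4. The slopes of Plac8, Cnfn, Scgn, Psca and Kcne1 were 1.24 ± 0.11, 1.24 ± 0.10, 1.16 ± 0.14, 1.04 ± 0.15 and 0.97 ± 0.17. Scgn was at 0 counts at positions 1 and 2, Psca at position 1 and Kcne1 at position 2, so their fitted slopes depend on the prior count and bound nothing.

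The 10 steepest falling genes were led by 2 embryonic globins. Hbb-y, the beta-like globin of primitive red cells, had 102, 32.97, 14.46, 6.22, 0.494, 0.510, 0.912 and 0.107 CPM from position 1 to 8. Its slope was -1.38 ± 0.10 log2 per position (adjusted p = 2.01e-05), and the lowest value of positions 1 to 4 exceeded the highest of positions 5 to 8. Hba-x, the matching alpha-like globin, had 16.7, 7.91, 4.99, 3.28, 0.898, 0.583, 0.651 and 0.293 CPM and a slope of -0.85 ± 0.06 (adjusted p = 1.32e-05). It showed the same split between the flow cells. Cyp26b1, an enzyme that breaks down retinoic acid, had 119, 91.2, 56.8, 50.9, 19.9, 10.5, 12.0 and 12.9 CPM and a slope of -0.54 ± 0.05, and -0.32 ± 0.07 within flow cells, where it did not pass (adjusted p = 0.0546). Sox2, a transcription factor of epithelial progenitors, had 39.0, 34.1, 22.3, 15.1, 7.97, 3.91, 4.25 and 4.69 CPM and a slope of -0.53 ± 0.05. Both were lowest at position 6. Meis2, a homeobox factor of the TALE class, had 33.8, 28.0, 16.6, 18.8, 7.45, 2.77, 4.09 and 3.63 CPM and a slope of -0.53 ± 0.06. The slopes of Dmrt2, Tdrd5, Cited1 and B3gat1 were -0.77 ± 0.07, -0.65 ± 0.07, -0.64 ± 0.06 and -0.61 ± 0.08. Of these, Dmrt2 and Cited1 encode transcriptional regulators, B3gat1 the enzyme that makes the HNK-1 glycan, and Tdrd5 a Tudor-domain protein known from the male germ line. In bulk tissue, fewer cells of a type and less RNA per cell cannot be told apart.

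**Figure D2:**
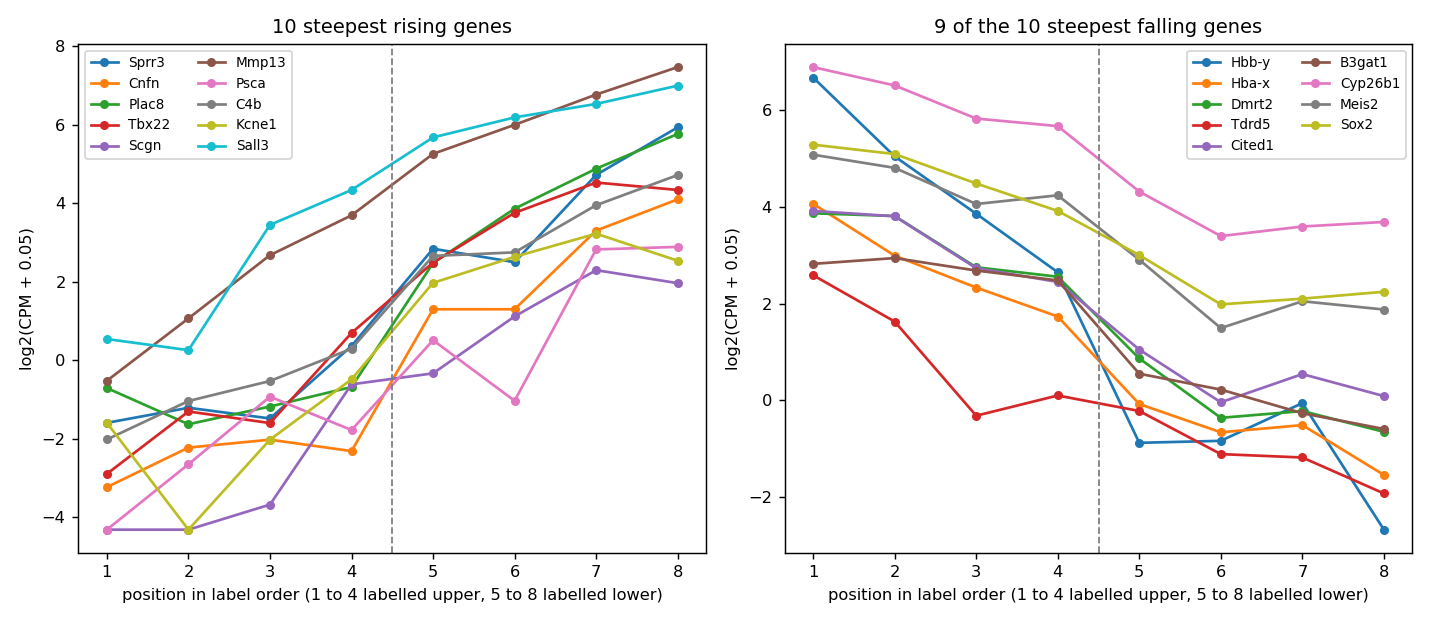
Level, as log2 of CPM plus 0.05, at positions 1 to 8 for the 10 steepest rising genes (left) and 9 of the 10 steepest falling genes (right), with 1 point for each library and a dashed line where the flow cell and the labelled tooth change. Mmp13 climbs between 0.644 and 177 CPM, and Hbb-y descends between 102 and 0.107 CPM.

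The bases just before the start of 4 genes are shown: Sprr3, the steepest named riser, Mmp13, which was higher at each position than at the one before, and the embryonic globins Hbb-y and Hba-x, which led the falling genes. Each line gives the 150 bases before the RefSeq start on the gene's own strand (build GRCm38.p6), with capitals for the TATA box letters TATAAA, for the AP-1 consensus TGANTCA and for the box known as CCAAT, all searched on both strands. The windows are chr9:7272364-7272513 (plus strand) for Mmp13, chr3:92458721-92458870 (minus) for Sprr3, chr7:103853208-103853357 (minus) for Hbb-y and chr11:32276450-32276599 (plus) for Hba-x.
Mmp13: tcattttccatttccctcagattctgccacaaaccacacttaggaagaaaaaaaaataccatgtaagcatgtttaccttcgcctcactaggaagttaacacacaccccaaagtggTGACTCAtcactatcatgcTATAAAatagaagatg
Sprr3: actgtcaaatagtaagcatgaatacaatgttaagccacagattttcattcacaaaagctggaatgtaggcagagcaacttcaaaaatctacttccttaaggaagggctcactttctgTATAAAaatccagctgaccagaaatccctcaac
Hbb-y: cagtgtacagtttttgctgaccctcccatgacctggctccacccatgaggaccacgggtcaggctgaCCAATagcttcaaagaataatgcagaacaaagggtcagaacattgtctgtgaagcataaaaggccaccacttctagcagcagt
Hba-x: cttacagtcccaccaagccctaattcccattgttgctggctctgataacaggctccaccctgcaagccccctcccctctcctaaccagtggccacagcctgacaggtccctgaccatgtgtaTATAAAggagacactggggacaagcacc
TATAAA was found in the windows of Mmp13, Sprr3 and Hba-x, and in 7.57% of 32851 RefSeq windows of this length. Mmp13 also held TGANTCA, 35 to 29 bases before the start, which 4.24% of the windows hold. CCAAT stood 83 to 79 bases before the start of Hbb-y, and 24.5% of the windows hold it. None of the motifs overlapped another, and a match is a description of letters, not a site in use.

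A curve, tested as a quadratic term beside the slope, was called for 16 genes. For 11 the fitted curve peaked between positions 2 and 7 (0.0687%), for 4 it dipped there (0.025%), and that of Mmp13 turned outside the order. Smoc1, a secreted matrix protein that modulates Bmp signals, had 24.0, 48.8, 87.9, 86.2, 100.0, 96.0, 68.8 and 46.4 CPM. It was highest at position 5, with a curvature of -0.13 ± 0.01 log2 per squared position (adjusted p = 0.00317, edgeR's quasi-likelihood test). Inmt, a methyltransferase, had 0.112, 0.408, 2.65, 4.27, 4.47, 3.45, 2.996 and 1.52 CPM, and Pdlim3, a PDZ and LIM protein of the muscle Z-disc, had 2.49, 4.97, 12.2, 23.9, 16.1, 19.8, 12.2 and 10.6 CPM. Pdlim3 was highest at position 4, where the skeletal muscle genes were also highest, and the part of muscle in its peak was not tested. Foxd2 (forkhead factor), Dpep1 (dipeptidase) and Ntrk3 (receptor of neurotrophin-3) rose as well, with slopes of 0.53 ± 0.08, 0.44 ± 0.08 and 0.34 ± 0.07, and their fitted curves turned at positions 6.91, 6.77 and 6.19. Dpep1 had 2.52, 6.17, 13.5, 19.5, 26.6, 24.4, 30.7 and 32.3 CPM and was highest at position 8, while Foxd2 was highest at position 6 and Ntrk3 at position 7. Among the dipping genes, Rspo4, a secreted amplifier of Wnt signals, had 17.55, 13.1, 12.2, 7.64, 19.9, 32.0, 55.8 and 119 CPM, and Col22a1, a collagen of tissue junctions, had 15.8, 13.8, 3.82, 2.77, 2.34, 3.18, 6.85 and 19.4 CPM. Car2, a carbonic anhydrase of osteoclasts and red cells, had 23.1, 19.6, 14.8, 15.8, 16.1, 30.3, 46.5 and 72.0 CPM, and Slc16a10, an amino acid transporter, had 22.4, 13.4, 9.28, 9.95, 9.83, 8.93, 11.6 and 14.7 CPM. Rspo4 was lowest at position 4 and Col22a1 at position 5, and all 4 were higher at position 8 than at position 5. Without position 8 no gene peaked or dipped past the threshold. DESeq2's Wald test called 124 peaking and 96 dipping genes.

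**Figure D3:**
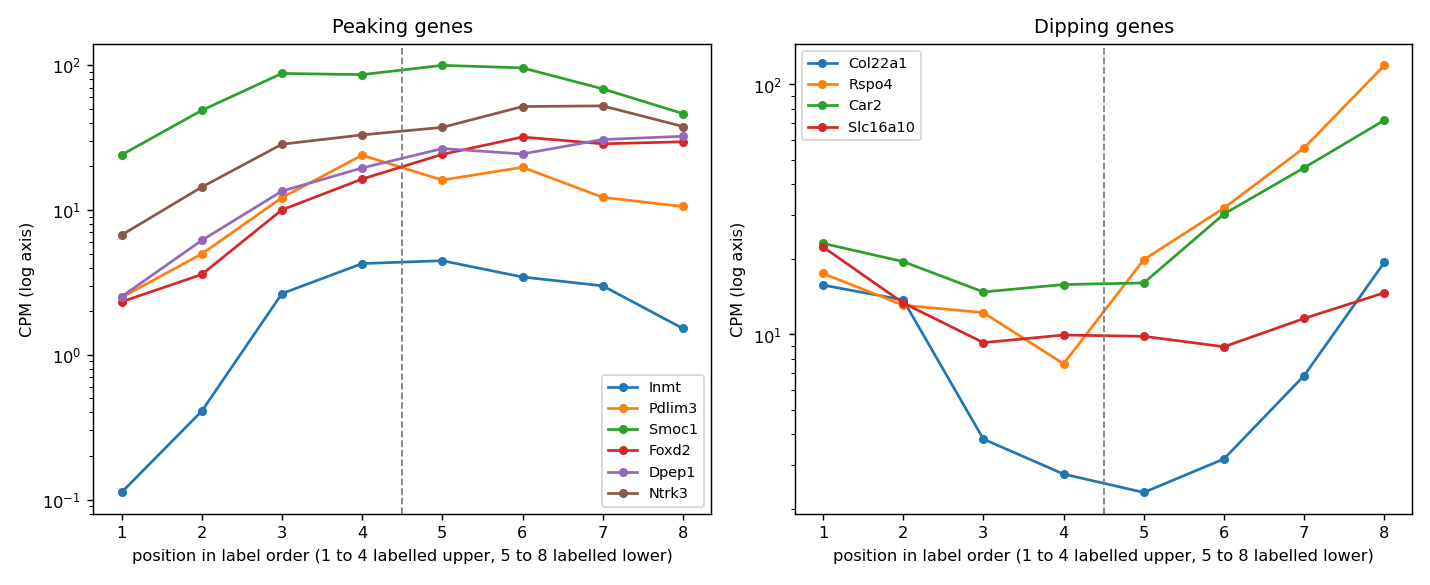
CPM on a log axis at positions 1 to 8 for the 6 named peaking genes (left) and the 4 named dipping genes (right), with 1 point for each library and a dashed line at the change of flow cell. Smoc1 is highest at position 5, at 100.0 CPM, and Col22a1 is lowest there, at 2.34 CPM.

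Enamel knot signals and their partners rose more often than they fell: of 18 tested genes, 10 rose and 1 fell, where 11.7% and 7.44% did over all tested genes. Within flow cells 2 of the 18 rose and 0 fell, where 2.37% and 0.793% did over all tested genes. The median slope of the list was 0.17 log2 per position, against 0.000314 over all tested genes. Shh, the Hedgehog ligand of the knots, had 61.4, 42.9, 83.5, 125, 181, 244, 344 and 459 CPM. After its lowest value at position 2 it was higher at each position than at the one before, with a slope of 0.47 ± 0.04 (adjusted p = 2.6e-05) and 0.42 ± 0.07 within flow cells. Msx2, a homeobox factor of the knot, had 32.6, 43.4, 63.9, 58.7, 98.5, 114, 135 and 192 CPM and a slope of 0.35 ± 0.02. Bmp7 and Fgf9, 2 knot ligands, rose by 0.19 ± 0.02 and 0.30 ± 0.03 log2 per position. Fgf3 had 18.7, 11.2, 11.8, 7.67, 25.2, 28.2, 38.3 and 52.0 CPM, and Fgf4, a ligand restricted to knots, had 6.88, 3.29, 2.59, 1.71, 7.63, 7.91, 12.3 and 10.9 CPM. Both were lowest at position 4 and more than 3 times that level at position 5. Fgf3 passed the pooled test (adjusted p = 0.0202), but its slope within flow cells was 0.02 ± 0.13, and it did not pass without position 2, 7 or 8. Fgf4 did not pass (adjusted p = 0.135). Bmp4, a ligand of both tissues, was the gene that fell, with 99.4, 95.9, 103, 99.7, 88.8, 87.4, 81.0 and 69.0 CPM, and it did not pass without position 8.

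Dental mesenchyme genes moved mainly the other way in the pooled test, with 12 of 20 falling and 3 rising and a median slope of -0.06. Within flow cells 1 of the 20 rose and 1 fell, where 2.37% and 0.793% did over all tested genes. Prrx1, a homeobox factor of jaw mesenchyme, had 628, 515, 407, 408, 293, 229, 237 and 196 CPM, with a slope of -0.24 ± 0.02 (adjusted p = 1.82e-05) and -0.19 ± 0.03 within flow cells. Msx1 had 233, 253, 169, 150.3, 106, 85.5, 72.6 and 80.5 CPM, and each of positions 5 to 8 was below each of positions 1 to 4. Lhx8, a LIM homeobox factor of the odontogenic mesenchyme, fell too, with a slope of -0.19 ± 0.02. The 3 that rose were Dlx2, Fgf10 and Zeb1, of which Dlx2 did not pass without position 2, 6, 7 or 8. Of 17 dental epithelium genes 6 rose and 5 fell, but 3 fell with the embryo as a block, 3 without position 6, 2 without position 2 or 7 and 1 without position 8. Cdh1, the epithelial cadherin, rose by 0.09 ± 0.01, and Krt15, a keratin of basal cells, had a slope of -0.24 ± 0.06. The steepest of the risers was Wnt10a at 0.24 ± 0.04.

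Among 8 tested ameloblast and enamel genes 4 rose and 1 fell, and those with the steepest slopes encode nuclear factors. Sp6, a zinc-finger factor needed for ameloblasts, had 143, 171, 217, 182, 428, 488, 619.8 and 719 CPM. Its step between positions 4 and 5 was larger than any of its steps within a flow cell. Dlx3 had 92.6, 112, 152, 159, 232, 264, 287 and 329 CPM and Satb1, a chromatin organizer, had 29.8, 37.7, 48.3, 46.2, 55.6, 72.7, 83.8 and 128 CPM. Both had slopes of 0.27, and both rose within flow cells too, at 0.22 ± 0.03 and 0.31 ± 0.04. The fourth was Fam83h, which did not pass with the embryo as a replicate block (adjusted p = 0.0752). The enamel matrix gene Ambn did not pass the test, with 12.3, 17.48, 27.5, 21.5, 18.5, 16.2, 14.3 and 13.97 CPM, and Amelx, Amtn, Mmp20, Klk4 and Slc24a4 were below the count filter. Odam, a protein of maturing enamel, fell, with a slope of -0.16 ± 0.05, and passed in 2 of the 8 sets that leave out 1 library. Of 14 odontoblast and dentin genes 4 rose and 2 fell. Spp1, osteopontin, had 4.09, 1.90, 1.95, 2.40, 15.6, 51.6, 83.4 and 106 CPM, with its lowest values at positions 2 to 4 and a slope of 0.91 ± 0.12, against 0.45 ± 0.22 within flow cells, where it did not pass. Phex, an endopeptidase of mineralizing cells, had 7.61, 8.53, 4.96, 4.09, 3.41, 1.82, 2.06 and 1.23 CPM and fell, with a slope of -0.40 ± 0.04. Dspp, the main dentin matrix gene, was below the filter.

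Bone genes mostly fell or were not called. Of 12 tested, 1 rose and 0 fell within flow cells, where 2.37% and 0.793% did over all tested genes. In the pooled test 5 fell (Ibsp, Ifitm5, Phospho1, Sost and Pth1r) and 2 rose (Mmp13 and Sp7). Sp7 did not pass without position 1, 2, 3, 4, 5, 7 or 8, and 3 fell without position 1 or 8 and with the embryo as a block, where Sp7, Phospho1 and Sost did not pass (adjusted p = 0.152, 0.111 and 0.296). Ibsp, bone sialoprotein, had 162, 155, 94.1, 64.1, 61.8, 58.5, 66.5 and 57.7 CPM. Most osteoclast genes rose, with 10 of 12 rising, 0 falling and a median slope of 0.21. Without position 8, and with the embryo as a block, 6 rose. Acp5, tartrate-resistant acid phosphatase, had 38.3, 47.3, 58.1, 62.0, 47.6, 93.4, 124 and 154 CPM, and Mmp9, a gelatinase, had 106, 163, 204, 201, 169, 223, 281 and 311 CPM. Both were lower at position 5 than at position 4 and higher again from position 6, and their slopes within flow cells, 0.39 ± 0.07 and 0.30 ± 0.04, exceeded their pooled slopes of 0.27 and 0.18. Ctsk, the collagen-degrading cathepsin, did not pass, with 69.9, 98.5, 19.03, 22.9, 22.4, 134, 119 and 153 CPM and low values at positions 3 to 5. Within flow cells 4 of the 12 rose, against 2.37% over all tested genes.

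Of 12 cartilage genes 4 rose and 2 fell, or 1 fell without position 1 or 8. Hapln1, which links hyaluronan to proteoglycans, had 7.89, 7.64, 7.02, 10.1, 29.2, 54.5, 83.0 and 109 CPM and a slope of 0.64 ± 0.06. Acan, the proteoglycan it binds, had 0.784, 0.815, 0.975, 1.47, 1.68, 2.67, 7.27 and 6.80 CPM, and Sox9 had 41.0, 51.8, 59.4, 60.6, 86.2, 97.6, 101 and 137 CPM, a factor that dental tissues express as well. Col2a1, the main cartilage collagen, fell, with a slope of -0.18 ± 0.04. Among collagens outside bone and cartilage 7 of 20 rose and 1 fell. With the embryo as a block 4 rose and 3 fell, without position 1 3 rose, and without position 8 2 rose and 2 fell. The faller, Col15a1, did not pass without position 1, 2 or 7, and 2 fell without position 5. Without position 1 another gene of the list fell. Col14a1, a fibril-associated collagen, had 33.5, 52.7, 71.0, 131, 123, 199, 178 and 299.8 CPM and was the 1 gene among the 115 tested slopes of named genes that still passed with a lane term, at 0.75 (adjusted p = 0.00929).

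**Figure D4:**
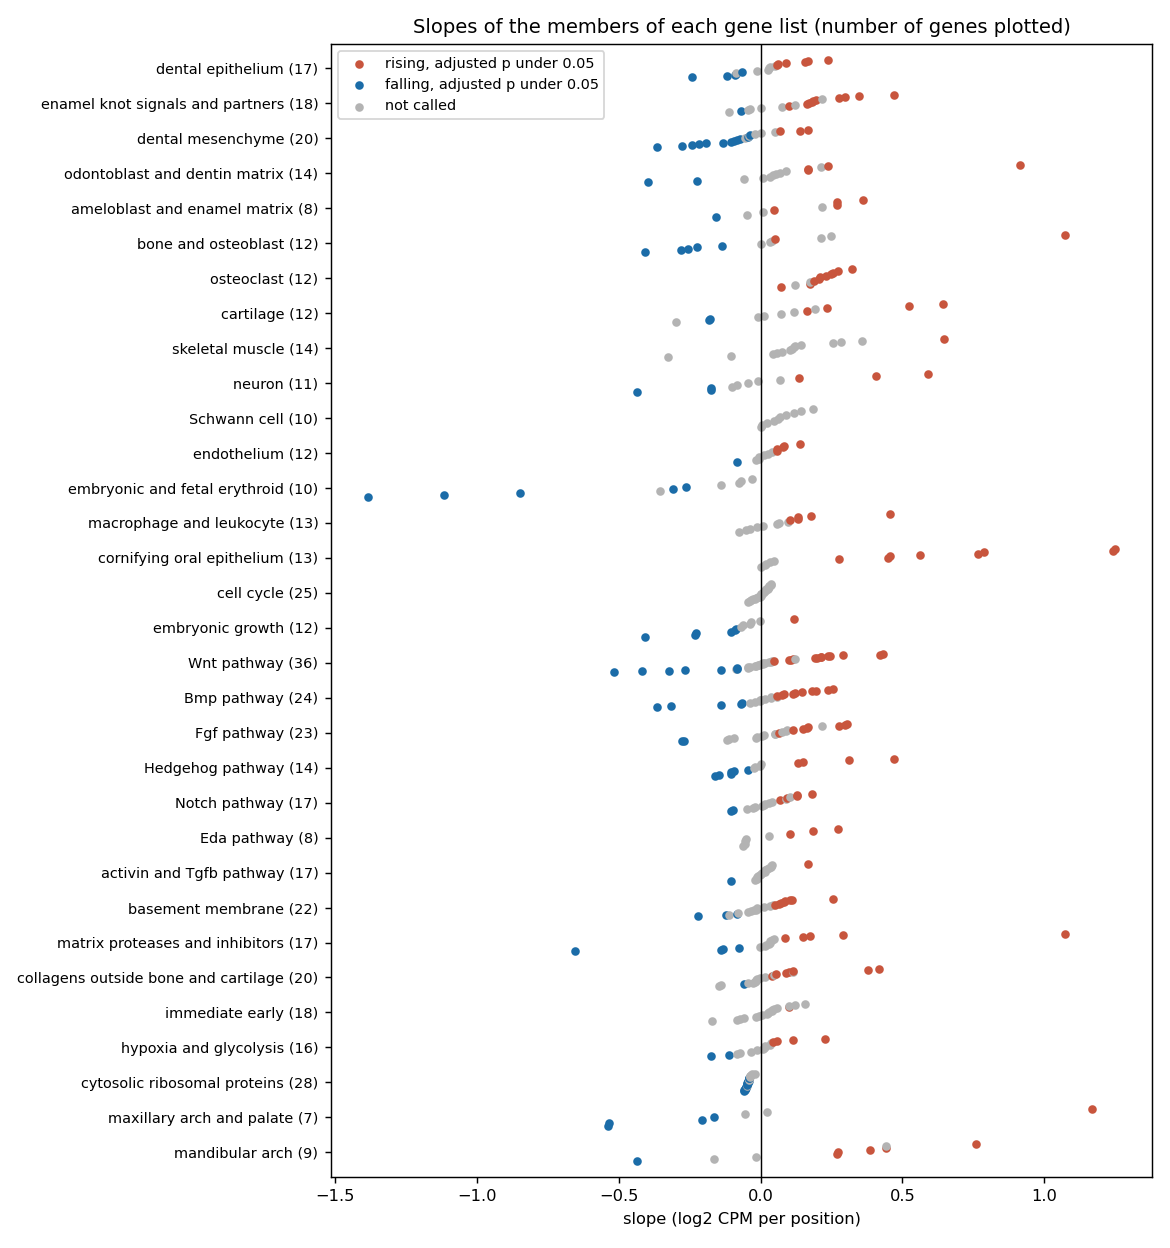
Slope of each tested member of 32 gene lists, in log2 CPM per position, with red for rising and blue for falling genes past the threshold and grey for the rest, and the number of genes plotted beside each name (Pou3f3 is left out). Osteoclast and cornifying genes lie to the right of 0, ribosomal protein genes in a narrow band to its left, and cell cycle genes close to 0.

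Within each signalling pathway some members rose and others fell or were not called. Of 36 Wnt genes 13 rose and 7 fell, against 2 and 3 within flow cells. Over all tested genes 11.7% rose and 7.44% fell, against 2.37% and 0.793% within flow cells. Notum, a secreted enzyme that inactivates Wnts, had 19.6, 25.9, 36.0, 39.3, 42.3, 55.4, 56.2 and 71.8 CPM and a slope of 0.24 ± 0.02. The R-spondins, which amplify Wnt signals, went different ways: Rspo2 had 20.7, 19.7, 32.9, 60.2, 84.3, 119, 117 and 114 CPM, whereas Rspo3 had 20.3, 19.8, 14.3, 10.2, 5.21, 3.25, 2.89 and 2.35 CPM. Their slopes were 0.43 ± 0.05 and -0.52 ± 0.04. Likewise Lgr6, an R-spondin receptor, rose by 0.20 ± 0.02, while the related receptor Lgr5 had a slope of -0.32 ± 0.06, with 47.3, 56.5, 44.97, 58.6, 24.0, 15.2, 17.53 and 14.02 CPM. Lgr5 changed chiefly between positions 4 and 5, and within flow cells its slope was -0.07 ± 0.07. Dkk2, a secreted Wnt inhibitor, had 64.8, 66.1, 69.7, 54.2, 24.2, 17.6, 13.7 and 13.1 CPM and the same kind of step.

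Of 24 Bmp genes 10 rose and 5 fell, against 6 and 3 without position 8 and 2 and 0 within flow cells. Within flow cells 2.37% rose and 0.793% fell over all tested genes. Bambi, a decoy receptor that is induced by Bmps, had 37.3, 42.3, 51.6, 63.2, 78.5, 90.3, 102 and 125 CPM. It was higher at each position than at the one before and had the smallest p of any gene tested (slope 0.25 ± 0.01, adjusted p = 3.89e-06, edgeR's quasi-likelihood test). Id4, a Bmp target, rose by 0.24 ± 0.02, and Bmp6 and the Bmp antagonist Chrdl1 fell, with slopes of -0.36 ± 0.04 and -0.32 ± 0.04. In the Hedgehog list 1 of 14 rose and 0 fell within flow cells, against 4 and 6 in the pooled test. Among the risers were Shh, its receptor Ptch1 and the antagonist Hhip, the last pair also targets of the pathway, with slopes of 0.47 ± 0.04, 0.13 ± 0.02 and 0.31 ± 0.04. The fallers were the transcription factors Gli1, Gli2 and Gli3 and the co-receptors Boc, Cdon and Gas1, of which Cdon did not pass without position 1, 2, 3, 5, 6 or 7 and Gas1 without position 8. Gli1, the other widely used target, had 547, 520.4, 556, 547, 480.1, 494, 471 and 439 CPM. Its slope was -0.04 ± 0.01, and it did not pass without position 7 or 8.

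Of 23 Fgf genes 0 rose and 0 fell within flow cells, against 8 and 2 in the pooled test. Over all tested genes 2.37% rose and 0.793% fell within flow cells, against 11.7% and 7.44% in the pooled test. The 0 of 23 is thus near the share over all genes. Among the risers were the feedback inhibitors Spry1, Spry2 and Spry4 with slopes of 0.06 ± 0.02, 0.15 ± 0.02 and 0.16 ± 0.03. Spry1, and Fgf18 among the fallers, did not pass without position 2, 3, 5, 6, 7 or 8. Of 17 Notch genes 5 rose and 2 fell, with 3 rising without position 2, 7 or 8, and of 8 genes of the Eda pathway, which acts in tooth and hair placodes, 3 rose and 0 fell, but 2 fell without position 1 and 1 with the embryo as a block. Edaradd, the adaptor of the Eda receptor, had 22.1, 20.7, 34.5, 42.6, 46.1, 55.7, 65.7 and 76.8 CPM and a slope of 0.27 ± 0.02. In the activin and Tgfb list 15 of 17 genes were not called, with Tgfbi rising and Inhba falling, and 2 rose without position 1. Of 22 basement membrane genes 8 rose and 3 fell. Without position 8, 5 rose, and without position 2, 3, 5, 6 or 7, 1 fell. Lama1, a laminin chain of epithelial basement membrane, had 26.0, 33.4, 57.8, 61.1, 61.7, 82.4, 77.9 and 105 CPM. Of 17 matrix proteases and inhibitors 5 rose and 4 fell.

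Jaw and arch genes were tested without the 2 genes that chose the libraries. Of 7 maxillary genes, 4 fell (Shox2, Meis1, Meis2 and Cyp26b1) and Tbx22 rose. Of 9 tested mandibular genes, 5 rose and Isl1 fell, which did not pass without position 1 or 2 or with the embryo as a block (adjusted p = 0.0592). The 5 were members of the Dlx homeobox family, Dlx3, Dlx4, Dlx5 and Dlx6, with the RNA Dlx6as1, which overlaps Dlx6 and cannot be told apart from it with certainty because the kit does not mark strand. Dlx5 had 27.6, 39.0, 47.4, 70.4, 102, 139.7, 137 and 166 CPM and a slope of 0.39 ± 0.03 (adjusted p = 1.82e-05). Dlx6as1 had 9.21, 7.09, 19.6, 38.2, 95.2, 131, 172 and 220.0 CPM and a slope of 0.76 ± 0.06. Dlx6 itself had 4.198, 3.37, 3.09, 3.94, 6.22, 7.74, 9.25 and 13.04 CPM, with no higher level at position 4 than at position 1.

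Genes of embryonic growth fell, 6 of 12, and Arid3b rose. Hmga2, a chromatin protein of embryonic cells, had 489, 339, 274, 234, 219, 181, 178 and 139 CPM and was lower at each position than at the one before, with a slope of -0.23 ± 0.02 and -0.28 ± 0.04 within flow cells. Igf2bp1, an RNA-binding protein of the same programme, had 115, 87.5, 81.6, 61.5, 60.1, 44.3, 45.2 and 36.2 CPM, and Lin28b, a repressor of let-7 processing, had 1.65, 1.20, 0.697, 0.752, 0.584, 0.413, 0.287 and 0.187 CPM. Of 28 cytosolic ribosomal protein genes 17 fell and 0 rose, by little: their median slope was -0.045 log2 per position. Their summed level was 27822 CPM at position 1, 31641 CPM at position 2 and 23948 CPM at position 8. Within flow cells 1 of the 28 fell, where 0.793% did over all tested genes. The 17 became 0 without position 8, 3 without position 2, 9 without position 7 and 10 without position 3.

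Several cell type lists did not follow the pooled order but went back at position 5. None of 25 cell cycle genes was called in the pooled test and 1 fell within flow cells, while 6 rose with the embryo as a block, 1 rose without position 1 and 1 fell without position 3 or 5. Yet each of the 25 was lower at position 4 than at position 1, each was higher at position 5 than at position 4, and 24 were lower at position 8 than at position 5. For these turns, and those of the muscle and macrophage lists below, no share over all tested genes is given. Members of a list may also move together and are not independent. Mki67, the proliferation marker, had 568, 385, 377, 371, 557, 505, 508 and 485 CPM. The summed level of the list was 4338 CPM at position 1, 3185 CPM at position 4, 4241 CPM at position 5 and 3745 CPM at position 8. All 14 skeletal muscle genes were higher at position 4 than at position 1 and lower at position 5 than at position 4. Their summed level was 9.71, 10.7, 21.8, 76.0, 11.6, 11.2, 38.7 and 25.0 CPM. Myh3, embryonic myosin heavy chain, had 0.840, 0.897, 4.35, 18.7, 1.46, 0.752, 6.85 and 3.44 CPM, and Ckm rose in the pooled test, but not without position 2 or 7, while 5 of the 14 rose within flow cells. Without position 4, and with the embryo as a block, 1 muscle gene fell. Positions 1 and 5, 2 and 6, 3 and 7, and 4 and 8 carry the same labelled day. Muscle tissue is no part of a tooth germ, and its part in other results was not tested. Without position 4, 1812 genes rose and 1143 fell over all genes, 2 peaked, 1 dipped, and 157 rose and 31 fell within flow cells.

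Macrophage and leukocyte genes showed the same return: 13 of 13 were higher at position 4 than at position 1, 12 were lower at position 5 than at position 4, and 13 were higher at position 8 than at position 5. In the pooled test 5 rose and 0 fell, and 5 rose within flow cells. The 5 of the pooled test became 3 without position 2, and 2 without position 1, 7 or 8. Cd163, a scavenger receptor of macrophages, had 0.112, 0.272, 0.251, 0.661, 0.314, 0.583, 1.54 and 1.23 CPM, and Csf1r, the receptor of colony stimulating factor 1, had 23.7, 30.2, 33.9, 33.1, 22.3, 39.4, 46.4 and 51.4 CPM. With the embryo as a replicate block 2 rose and 1 fell, and the adjusted p of Csf1r was 0.0822 and that of Lyz2 0.111. Of 12 endothelial genes 5 rose and 1 fell, by at most 0.14 ± 0.02 for Flt1, a receptor of Vegfa, and 3 rose and 0 fell without position 2, 6, 7 or 8 and with the embryo as a block. Without position 3, too, 0 fell. Of 11 neuronal genes 3 rose and 3 fell, or 1 fell without position 1 or 2 and with the embryo as a block. Nefl, the light neurofilament, had 0.392, 0.299, 0.474, 0.601, 0.651, 1.60, 3.05 and 4.61 CPM. None of 10 Schwann cell genes was called, against 1 that rose without position 8 and with the embryo as a block, and the median slope of that list was 0.06.

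Cornifying oral epithelium was the steepest list, with 8 of 13 rising, 0 falling and a median slope of 0.45. Without position 8 4 rose, and with the embryo as a block 5, where the adjusted p of Krt13 was 0.0935. Krt4 and Krt13, keratins of the oral lining, had 3.78, 5.001, 6.02, 43.7, 51.1, 28.2, 96.2 and 169 CPM and 11.2, 51.8, 54.7, 169, 171, 75.7, 180.2 and 264 CPM. Both dropped at position 6. Krt1 and Krt10, keratins of stratified epithelium, were not called, with 57.6, 83.8, 107, 164, 139.7, 32.0, 87.5 and 127 CPM and 51.9, 86.1, 100.3, 128, 96.1, 45.5, 69.1 and 102 CPM and their lowest values at position 6. The summed level was 227, 382, 392, 739, 651, 297, 619.9 and 979 CPM, lowest at positions 1 and 6. The part of such epithelium in other results was not tested. The erythroid list fell in 5 of 10 genes, with a sum of 149, 71.9, 47.2, 42.7, 32.9, 27.1, 21.9 and 16.2 CPM, which was lower at each position than at the one before. Of the 149 CPM at position 1, Hbb-y made up 102 and Hba-x 16.7. The other genes of the list together did not fall at each position. Alas2, the first enzyme of haem synthesis in red cells, did not pass, with 15.8, 22.5, 19.4, 25.4, 24.2, 19.3, 15.53 and 11.7 CPM. Hbb-b2, Hba-a1 and Hba-a2, near-identical adult globins, were below the filter and their reads may be split or dropped in counting. Of 18 immediate early genes, which respond to handling, Junb rose and none fell. Without position 8 none rose, without position 6 3 rose, and 2 fell without position 1 and with the embryo as a block, against 1 without position 7. Of 16 hypoxia and glycolysis genes 4 rose and 2 fell, the steepest being Hk2, hexokinase, at 0.23 ± 0.02. Without position 2 or 7, and with the embryo as a block, 2 rose, and without position 8 1 rose.

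**Figure D5:**
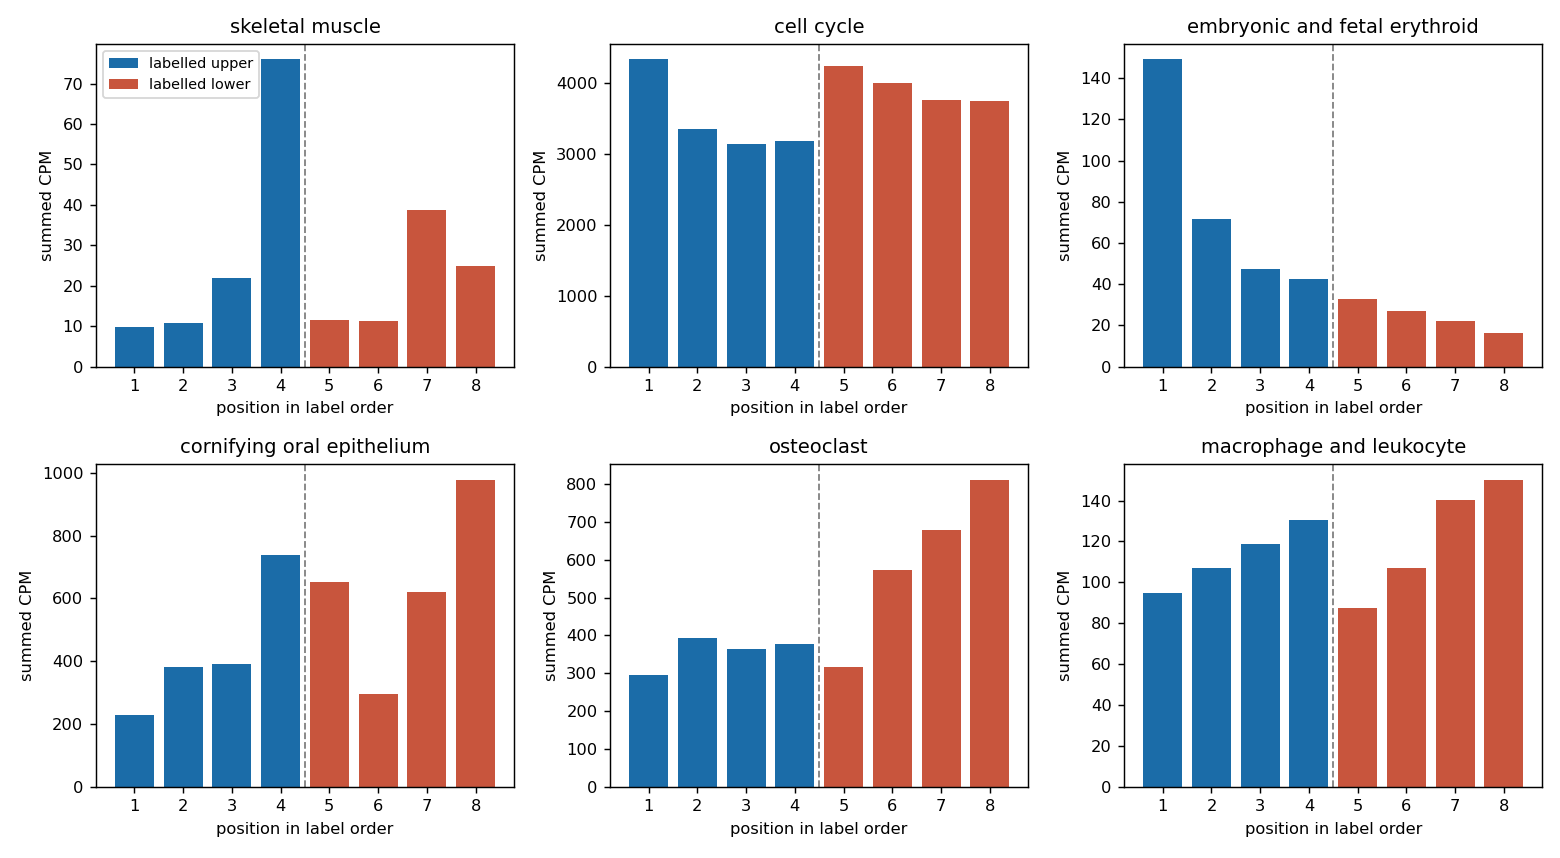
Summed CPM of 6 gene lists at positions 1 to 8, with bars from 0, blue for labelled upper, red for labelled lower and a dashed line at the change of flow cell. Muscle reaches 76.0 at position 4 and 11.6 at position 5, and cell cycle is highest at positions 1 and 5. The erythroid sum, most of which is Hbb-y and Hba-x at position 1, descends throughout.

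A step at the change of flow cell, over and above a common slope, passed for 0 of 16020 genes (0%; smallest adjusted p 0.148). Still, 2419 genes (15.1%) had an unadjusted p under 0.05, and DESeq2 called 248 higher and 209 lower. The 0 calls thus do not show that a step was absent. The step from position 4 to position 5 had the direction of the slope in 1395 of the 1869 rising and 1001 of the 1192 falling genes. The pooled slope is fitted across that step too, so these shares are partly set by how the genes were called. Among the 380 genes that rose within flow cells the step was upward in 190, or 50%, and among the 127 that fell it was downward in 58, or 45.7%. The slope within flow cells weights positions 4 and 5 in opposite directions. The call thus pushes this step against the slope, and the shares are no measure of the step. Position 5 lay beyond position 1 in the direction of the slope for 359 of the 380 and 113 of the 127. Positions 1 and 5 carry equal weight in that slope, but flow cell and labelled tooth both change between them. This count is therefore no separate evidence of a continuous order.

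The intermediate-stage libraries, which share no library with these 8 and cover the same flow cells and lanes at each position, were tested in the same way. In them 2286 of 16287 genes rose (14%) and 1667 fell (10.2%). Of the genes rising in the high Pou3f3 libraries 1500 also rose there, which is 80.3% of the 1869 and 65.6% of the 2286. The falling genes shared were 907, or 76.1% of the 1192 and 54.4% of the 1667. Opposite calls were made for 1 gene that rose and 2 that fell. The slope of Mmp13 was 1.07 ± 0.06 in the high Pou3f3 libraries and 0.81 ± 0.07 in the intermediate-stage libraries, and that of Hbb-y was -1.38 ± 0.10 and -1.47 ± 0.07.

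A difference in slope between the 2 sets passed for 0 genes (0%; smallest adjusted p 0.0612), with 646 genes at an unadjusted p under 0.05 and 8 higher and 14 lower by DESeq2. Libraries at the same position of the 2 sets deviated together from their lines, with correlations of 0.388 to 0.54 across genes, and with position as a block 72 genes had a higher slope (0.442%) and 87 a lower one (0.534%). The genes with the smallest p were Tfap2b, Magel2 and Wnt2 with a higher slope and Lypd6b, Pla2g7 and Plxna2 with a lower one. Tfap2b, an AP-2 transcription factor, had 409, 358, 280.0, 249.3, 195, 181, 159 and 117 CPM here. Its slopes were -0.25 ± 0.01 here and -0.40 ± 0.02 in the intermediate-stage libraries (adjusted p = 0.0612 without and 0.00657 with the block). Pla2g7, a secreted phospholipase, had 44.8, 37.5, 37.8, 27.1, 16.9, 14.8, 15.6 and 13.97 CPM, and slopes of -0.27 ± 0.03 here and 0.06 ± 0.04 in the intermediate-stage libraries (adjusted p = 0.148 without and 0.0118 with the block). Lypd6b had 20.9, 23.1, 23.3, 21.2, 20.6, 22.3, 21.3 and 21.2 CPM, with slopes of -0.01 ± 0.01 here and 0.16 ± 0.02 there. Magel2 had slopes of 0.24 ± 0.04 here and -0.10 ± 0.04 there, Wnt2 -0.48 ± 0.05 and -0.92 ± 0.08, and Plxna2 -0.10 ± 0.02 and 0.06 ± 0.02.

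Among the listed genes, Dlx5 and Dlx6as1 had the smallest p for a difference under the position block. Dlx6as1 had a slope of 0.76 ± 0.06 log2 per position in the high Pou3f3 libraries and 0.40 ± 0.04 in the intermediate-stage libraries, a difference of 0.36 ± 0.03 (adjusted p = 0.000347 with the block and 0.444 without it). Dlx5 had slopes of 0.39 ± 0.03 here and 0.25 ± 0.03 there, a difference of 0.14 ± 0.01 (adjusted p = 0.000347 with the block and 0.662 without it). With Dlx6 and Gbx2 these were 4 of 9 mandibular genes with a higher slope, leaving out Nkx2-3, and 0 had a lower one, where 0.442% and 0.534% did over all genes. Dlx6 and Dlx6as1 overlap and their reads cannot be separated, so the 4 are not independent members. None of the 4 passed without the block. Fgf10, Pax9 and Twist1 of the mesenchyme list and Mmp13 also had a higher slope under the block. Msx2, Satb1 and Smpd3 had a lower one, with differences of -0.11 ± 0.02, -0.17 ± 0.02 and -0.14 ± 0.03. For Shh the difference was -0.03 ± 0.04 (adjusted p = 0.858 with the block), for slopes of 0.47 ± 0.04 here and 0.51 ± 0.03 there.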

How the data were processed

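RNA was measured in 16 libraries of pooled first molar germs by polyA RNA-seq (TruSeq V2, which does not mark strand), per the labels' protocols. The authors deposited 1 table of whole-number counts per library, with 23337 genes each. The tools TopHat2 2.0.6, Bowtie2 2.0.2 and HTSeq 0.5.3p9 and the build mm10 are named per the submitters' processing notes. The annotation and strand setting of the counting were not given in the sources used here. Reads of near-identical genes (globins, keratins) may be split or dropped in such counting, and reads of overlapping genes on opposite strands (Dlx6 and Dlx6as1) cannot be separated. Reads in no gene made up 12.9% to 15.1% of each of the 8 tables and were left out of library sizes and tests.

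Libraries were grouped by the labelled stage and ordered by labelled tooth and stage. The members, the order and the gene lists were chosen with earlier results of these data known. Genes with a CPM of at least 0.268 (10 counts at the median depth) in at least 2 libraries were tested, 16020 in all, or 16287 over the 16 libraries. Slopes, quadratic terms, flow cell steps and slope differences were tested with edgeR 4.0.16 (R 4.3.3; TMM, quasi-likelihood F test, prior count 2 for fitted slopes) and Benjamini-Hochberg adjustment over all tested genes at 0.05. Standard errors are the size of the coefficient divided by the square root of F. A gene peaked or dipped where its curve turned between positions 2 and 7. Steep genes are the 10 rising and 10 falling genes with the steepest slope, at least 50 mean counts and the same sign in both flow cells, leaving out unnamed gene models, small RNAs, Xist and Y-linked genes; 6 peaking and 4 dipping genes were taken by the size of the quadratic term, and 3 genes in each direction by the smallest p of the slope difference. Some genes that these rules or lists hold are not reported here by name. The tests were checked on simulated data. No 2 of the 28 pairs of libraries were alike: at least 18108 genes differed in count.

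The labels give the upper and lower germ of a stage as 1 embryo, so the embryo was used as a replicate block in an alternative. With this block the slope rests only on the difference between labelled teeth, which is also that between flow cells. Deviations from the group means, which keep any slope that both groups share, correlated at 0.182, 0.0582, 0.0931 and 0.143 for the 4 embryos. Residuals from the line over position correlated at -0.0532, -0.101, -0.0345 and -0.22, so they showed no positive pairing by embryo. Positions of the 2 sets share a flow cell, a lane and correlated residuals, and position was the block for slope differences. Other alternatives were DESeq2 1.42.0, its size factors, no filter, a lane or flow cell term, and leaving out each library. With 1 library per position and counts of 33146758 to 44565205, p-values measure the scatter of single libraries about the fitted line or curve. Promoter sequences and gene positions are from RefSeq (GRCm38.p6), matched by symbol for 14359 genes and by synonym for 1574, with 87 unmatched.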

Additional observations from a re-analysis of the deposited data

Results flagged for a closer look

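Xist stood apart at position 5, at 543 CPM against 1502 to 1926 CPM at the other 7 positions. The gap to its nearest neighbour was 0.804 of the whole range on the log2 scale, above Dixon's critical value at the 95% level for 8 libraries. It was the 1 such case among 131 named genes and 36 other measures, where chance gives about 1 in 20. The intermediate-stage library at position 5 was also the lowest in its own set, at 428 CPM. The labels call every embryo male, and the cause of the level was not tested.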

How the results depend on the processing

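Counts of rising and falling genes stayed within 1.5 times of 1869 and 1192 with DESeq2's size factors (1819 and 1241), no filter (1862 and 1184), DESeq2's Wald test (2095 and 1607, of which 1840 and 1171 were shared) and the embryo as replicate block (1598 and 1073, of which 1350 and 843 were shared). Of 232 rising or falling genes in the gene lists and named sets, the block ended the call of 46, and leaving out 1 library that of 9 to 74. That block compares the flow cells, or labelled teeth, alone and does not test the order within them. A lane term left 3 rising and 0 falling genes, and it reversed the slopes of Psca (-0.51), Smpd3 (-0.029), Tnfrsf19 (-0.074) and Inhba (0.012). Leaving out 1 library gave 1223 to 1812 rising, 726 to 1247 falling, 0 to 10 peaking and 0 to 3 dipping genes, and it ended 5 to 10 of the 10 named curvature calls. It gave 150 to 254 genes rising and 28 to 91 falling within flow cells, 0 to 1 higher and 0 to 2 lower at the flow cell change, and 0 to 0 with either slope difference. DESeq2's Wald test called 124 peaking, 96 dipping, 248 higher and 209 lower at the flow cell change, 945 rising and 558 falling within flow cells, and 8 higher and 14 lower slope differences. A flow cell term gave 66 peaking and 35 dipping genes, and the replicate block by position 72 higher and 87 lower slope differences. The causes were not tested. With 1 library at each position, no error within a position can be given.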
